A study of Homo sapiens with 8 samples.

Results

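The intron-encoded C/D box small nucleolar RNAs (snoRNAs) of GAS5, the growth arrest-specific host gene, were examined in HEK293, an established cell line derived from human embryonic kidney. The members are the 10 table entries SNORD44, SNORD47, SNORD74, SNORD75, SNORD76, SNORD77, SNORD78, SNORD79, SNORD80 and SNORD81, of 2962 small RNA features in all, and they were taken by name and not by measured value. Cells were lipofected with 50 nM of a synthetic RNA and collected after 48 h. The 4 control libraries (scramble 1 to 4) came from cells given a scrambled mimic, and the other 4 (tDR 1 to 4) from cells given a mimic of a tRNA-derived small RNA (tDR), the 3′ fragment of tRNA-Asp-GTC. Total RNA was extracted with TRIzol and made into OTTR-seq libraries, in which a reverse transcriptase joins both adapters while copying the RNA. Whether the 4 libraries of a group came from separate cultures is not stated, and the p-values measure only how these libraries vary, which may be technical.

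C/D snoRNAs are short nucleolar RNAs that assemble with fibrillarin, NOP56, NOP58 and SNU13 and direct 2′-O-methylation of ribosomal RNA by base pairing. The box C and box D motifs near their ends bind the proteins and protect the RNA while the rest of the spliced intron is degraded. GAS5 belongs to the 5′ terminal oligopyrimidine class of genes, its spliced RNA has little coding capacity, and its exons are known to be turned over by nonsense-mediated decay in growing cells. SNORD44 is a guide for 18S rRNA, the remaining members are listed as guides for 28S rRNA, and SNORD44 and SNORD47 are widely used as reference RNAs in small RNA PCR.

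All 10 members lay within the GAS5 gene on the minus strand of chromosome 1 (GRCh38, 173863900 to 173868882 in GENCODE release 29), at the positions RefSeq gives. In the longest annotated GAS5 transcript, which has 13 exons and 12 introns, each member occupied an intron of its own, and introns 1 and 10 held none. From 5′ to 3′ the order was SNORD74 in intron 2, SNORD75 in 3, SNORD76 in 4, SNORD77 in 5, SNORD44 in 6, SNORD78 in 7, SNORD79 in 8, SNORD80 in 9, SNORD47 in 11 and SNORD81 in 12. Annotated lengths ran from 60 bases for SNORD75 to 81 bases for SNORD76 and SNORD79. The GAS5 transcript itself had no entry among the features.

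Retained-intron transcripts of GAS5 in GENCODE hold the full sequence of 7 members. Those of the 2 most abundant members and of SNORD47 are shown so that the boxes that define the class can be seen. They read 5′ to 3′ on the minus strand (GRCh38), and capitals mark the first TGATG or TGATGA, the core of box C, and the last CTGA, box D. SNORD44 lies at chr1:173865968-173866028, SNORD81 at chr1:173864146-173864222 and SNORD47 at chr1:173864369-173864445.
SNORD44: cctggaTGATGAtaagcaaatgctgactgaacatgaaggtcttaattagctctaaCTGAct
SNORD81: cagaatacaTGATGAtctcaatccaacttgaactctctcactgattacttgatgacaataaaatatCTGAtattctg
SNORD47: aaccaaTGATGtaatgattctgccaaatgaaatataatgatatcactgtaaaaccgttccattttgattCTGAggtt

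On the sense strand, TGATGA occurred in 5 of these 7 sequences (71.4%) and in 223 of 288 GENCODE transcripts named SNORD (77.4%), and SNORD47 and SNORD77 were without it. The shorter TGATG, which TGATGA contains, occurred in 7 of 7 against 91.3% of those transcripts, and CTGA in 7 of 7 against 98.3%. The last CTGA left between 2 bases (SNORD44 and SNORD80) and 7 bases (SNORD77 and SNORD81) before the annotated 3′ end.

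SNORD77 (chr1:173866301-173866370) and SNORD80 (chr1:173864833-173864903), listed as guides to a shared 28S position, are shown for the run of 14 bases they have in common. Among the 21 pairs of sequenced members it was the longest shared run, ahead of 10 bases for SNORD44 with SNORD80. Capitals mark it.
SNORD77: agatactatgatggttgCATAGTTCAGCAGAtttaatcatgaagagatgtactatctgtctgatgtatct
SNORD80: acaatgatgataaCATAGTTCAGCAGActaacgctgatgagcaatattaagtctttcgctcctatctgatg
The same run occurred in 1 of 288 GENCODE SNORD transcripts (0.347%), that of SNORD77B, a gene outside GAS5. The SNORD77 and SNORD80 sequences printed here are not among those 288, so that share leaves them out.

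Counts summed over features ranged from 4016295 to 10246336 per library. The 10 members gave 8508 to 20237 counts per library, between 0.146% and 0.212% of all counts. Single members held 225 to 5184 counts in a library, so counting error alone gave a coefficient of variation of 1.39% to 6.67%. The row scr2, whose name is not explained, held 22444 to 58186 counts in the scramble libraries and 59 to 240 in the tDR libraries. The 7 microRNAs listed for HEK293 were all detected, and their summed level in CPM, counts scaled to a fixed library size, ran from 1046 to 1563 with the scramble and from 614 to 1101 with the tDR mimic. One of them, hsa-miR-92a-3p, fell (log2 fold change -0.79, SE 0.20, 95% interval -1.21 to -0.37, edgeR adjusted p = 0.0229). Of the neural list, summing to between 36.7 and 69.2 CPM, hsa-miR-128-3p fell (log2 fold change -1.10, SE 0.24, 95% interval -1.60 to -0.59, edgeR adjusted p = 0.00769). The HEK293 sum leaned on hsa-miR-92a-3p, with a scramble mean of 777 CPM. Scramble means of hsa-miR-10a-5p, hsa-miR-10b-5p, hsa-miR-196a-5p and hsa-miR-196b-5p were 33.0, 14.2, 20.8 and 49.7 CPM. That of the neural hsa-miR-9-5p was 48.9 CPM, so the sums do not rank the 2 lists. The blood, endothelial and muscle lists, of which 1 of 6, 2 of 2 and 2 of 4 microRNAs had a row, summed to at most 0.948, 9.95 and 3.82 CPM, and the liver marker hsa-miR-122-5p had no row. The call of hsa-miR-92a-3p was lost in 5 of 20 other settings: TMM on microRNA rows (adjusted p = 0.199), the replicate block (0.118), and without scramble library 4 (0.0836), tDR library 4 (0.0812) or tDR libraries 3 and 4 (0.143). That of hsa-miR-128-3p was lost in 3, with TMM on microRNA rows (0.0579), the replicate block (0.0775) and without tDR libraries 3 and 4 (0.0705). The part of these microRNA differences in the snoRNA values was not tested.

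From one host gene the members were recovered in very unequal amounts. On the scale of CPM per kilobase of annotated length, SNORD44 stood highest at 7464 ± 571 and SNORD78 lowest at 648 ± 111 (SD, n = 8 libraries). The ratio of the highest to the lowest member within a library was 11.7 ± 1.41 (SD, n = 8) and ranged from 10.2 to 14.2. CPM here are scaled by trimmed mean of M values (TMM), and the length is the RefSeq gene length. Whether counts rise with RNA length in these libraries was not tested, so the length step may favour short members. Without it the ratio was 11.3 ± 1.88. Every library was therefore far from equal levels per length among the members. The parts of production, stability and capture in these levels were not tested. Of 29 annotated GAS5 transcripts, 24 had an intron around SNORD75 and 14 had one around SNORD74.

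SNORD81, the member of the last intron, was second at 5463 ± 969 CPM per kilobase. A group of 4 followed, with SNORD79 at 2275 ± 430, SNORD47 at 2076 ± 280, SNORD80 at 2072 ± 187 and SNORD76 at 2014 ± 193 CPM per kilobase. Below them stood SNORD77 at 1333 ± 229, SNORD75 at 1003 ± 127, SNORD74 at 816 ± 108 and SNORD78 at 648 ± 111 CPM per kilobase (SD, n = 8 each). The widest step between neighbours was the one below SNORD81. SNORD81 exceeded SNORD79 in 8 of 8 libraries by a ratio of 2.42 ± 0.204, and SNORD76 exceeded SNORD77 in 8 of 8 by 1.54 ± 0.206.

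Within that group of 4 the order was not fixed. SNORD79 exceeded SNORD47 in 6 of 8 libraries, SNORD47 exceeded SNORD80 in 4 of 8, and SNORD80 exceeded SNORD76 in 4 of 8. Over the 8 libraries these neighbours did not differ beyond their spread. By group, SNORD79 exceeded SNORD47 in 2 of 4 scramble and 4 of 4 tDR libraries. SNORD47 exceeded SNORD80 in 2 of 4 of each, and SNORD80 exceeded SNORD76 in 3 of 4 scramble and 1 of 4 tDR libraries. SNORD44 exceeded SNORD81 per length in 8 of 8 libraries, by a ratio that ranged from 1.07 to 1.79. That order rested on the length step. In CPM, SNORD81 was the higher in tDR 1 (490.4 against 486), tDR 3 (464 against 453) and tDR 4 (479 against 406). Per length, SNORD77 exceeded SNORD75 in 8 of 8, SNORD75 exceeded SNORD74 in 7 of 8 and SNORD74 exceeded SNORD78 in 7 of 8. By group means of level per length, the first 2 and last 4 positions were the same under both mimics. The middle 4 changed places.

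**Figure D1:**
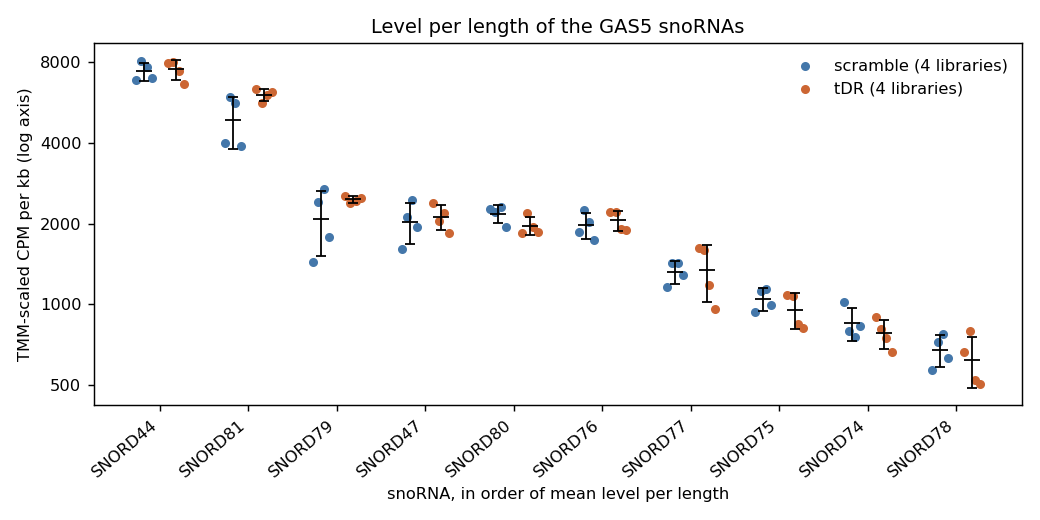
TMM-scaled CPM per kilobase (log axis) of each GAS5 snoRNA in the 4 scramble and 4 tDR libraries. Points are libraries and bars are the mean ± SD of a group. SNORD44 and SNORD81 sit apart from the rest, SNORD79, SNORD47, SNORD80 and SNORD76 lie close together, and the groups overlap for every member.

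Position in the host differed among the members. In the longest transcript, 8 of 10 members ended between 64 and 94 bases before the 3′ splice site of their intron. Intronic C/D snoRNAs are known to lie at a fairly constant distance before the branch point, where their proteins assemble during splicing. The exceptions were SNORD80, at 128 bases, and SNORD74, at 630 bases in an intron of 937 bases. SNORD74 was 9th of 10 in level per length and SNORD80 5th. The lowest member, SNORD78, lay at 74 bases, next to SNORD44 at 73 bases, and the SNORD44 to SNORD78 ratio was 11.04 ± 0.866 in the scramble and 12.4 ± 1.74 in the tDR libraries (SD, n = 4 each). So members at nearly the same distance covered the whole range of levels.

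Across the 10 members, Spearman's rho between level per length and distance to the 3′ splice site was -0.53. It was -0.45 with intron length, 0.60 with intron number counted from the 5′ end, and 0.30 with the length of the snoRNA. These are descriptions over 10 genes that share a transcript and the same libraries. Other GAS5 transcripts placed SNORD44, SNORD77, SNORD78 and SNORD79 at other distances as well, between 15 and 1018 bases. SNORD74 was at 630 bases in all 14 transcripts with an intron around it.

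**Figure D2:**
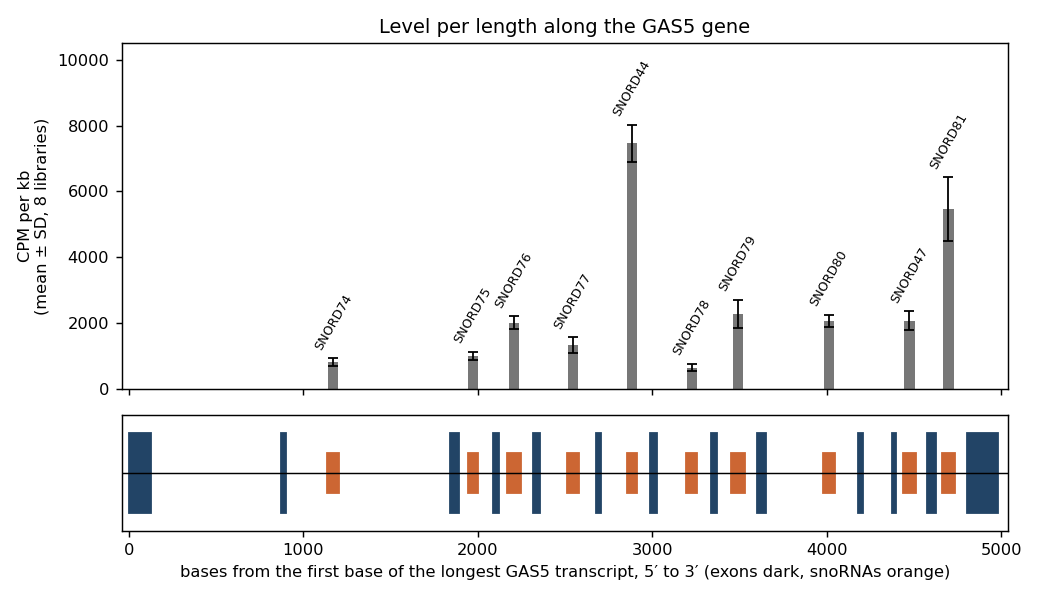
Upper panel, CPM per kilobase of each snoRNA (mean ± SD over 8 libraries) at its place along the longest GAS5 transcript. Lower panel, the 13 exons (dark) and 10 snoRNAs (orange), in bases from the first base of the transcript. SNORD74 stands alone in a long intron with 630 bases after it, and the tall SNORD44 and short SNORD78 are in neighbouring introns.

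Unequal levels per length were also seen in other hosts, which were read for comparison. The ratio of highest to lowest snoRNA per length was 42.2 ± 6.46 for the 8 snoRNAs of SNHG1, 9.30 ± 2.20 for 4 of RPL13A and 7.12 ± 1.72 for 4 of RPL7A (SD, n = 8 libraries). A ratio of extremes tends to grow with the number of genes, so these values are not like for like. The median member level was 2043 CPM per kilobase for GAS5, against 664 for SNHG1, 731 for RPL13A and 1407 for RPL7A.

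The GAS5 members were among the abundant C/D snoRNAs of these cells. They held between 12.6% and 15.1% of all counts on the 205 SNORD rows. Of the 179 SNORD rows with a RefSeq length, SNORD44 ranked 1st by level per length, SNORD81 3rd and SNORD79 9th. SNORD47 ranked 14th, SNORD80 15th, SNORD76 17th, SNORD77 33rd, SNORD75 40th, SNORD74 51st and SNORD78 68th. The ranks depended on the length step. By mean CPM among the 205 rows, SNORD44 ranked 6th, SNORD81 7th, SNORD79 12th, SNORD76 14th and SNORD47 15th. SNORD80 then ranked 19th, SNORD77 35th, SNORD75 65th, SNORD74 67th and SNORD78 89th. All 10 lay above the median SNORD row of 402 CPM per kilobase.

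None of the members had another row with nearly equal counts (within 10% or 3 counts in every library), so their reads were not also carried by another row to that extent. Rows with related names were sparse: SNORD81.1 held 0 to 8 counts, SNORD81.2 held 0 to 11 and SNORD77B held 4 to 13 per library. Where a row was at 0, up to 3 counts remain possible, at most 7.47e-05% of a library (counting error only).

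The second question was whether the members differed after the tDR mimic. They did not pass the test: all 10 were tested, 0 rose and 0 fell in edgeR's quasi-likelihood fit, with p-values adjusted by Benjamini-Hochberg over 1761 features (lowest adjusted p = 0.278). None had an unadjusted p below 0.05 in that fit, and DESeq2 and limma-voom also called 0. Over 20 other settings 4 of 200 member estimates had an unadjusted p below 0.05. SNORD81 had 3 of them, with adjusted p = 0.229 in limma-voom, and edgeR adjusted p = 0.208 without the scramble library of replicate 2 and 0.134 under TMM on microRNA rows. SNORD79 had the other (edgeR adjusted p = 0.137), under that last scaling. Over all tested features edgeR called 118 (6.7%), 94 higher (5.34%) and 24 lower (1.36%), and 21.5% had an unadjusted p below 0.05. The groups did not overlap for 0 of 10 members, against 13.3% of all tested features. With so few members, a count of 0 lies near the background. Fewer cells with a snoRNA and less of it per cell cannot be told apart in these bulk libraries.

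Fitted log2 fold changes ran from -0.15 (SNORD80) to 0.32 (SNORD81), with a median of 0.021 against 0.020 over all features. The 95% intervals of the 10 members together reached from -0.48 to 0.67. These intervals are those of TMM scaling. Under TMM on microRNA rows, which moved the median of all features to 0.36, SNORD81 stood at 0.68 (SE 0.28, edgeR adjusted p = 0.134) and SNORD79 at 0.63 (SE 0.26, adjusted p = 0.137), and under total counts they stood at 0.17 and 0.093. In the TMM fit standard errors were between 0.14 and 0.18.

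SNORD81 had the largest estimate. Its level was 307, 456, 434 and 301 CPM in scramble libraries 1 to 4 and 490.4, 433, 464 and 479 CPM in tDR libraries 1 to 4. Scramble 1 and 4 were low, while scramble 2 and 3 stood at the level of the tDR libraries, so the groups overlapped. The log2 fold change was 0.32 (SE 0.17, 95% interval -0.031 to 0.67, edgeR adjusted p = 0.278).

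SNORD79 followed the same libraries. It stood at 117, 196, 218 and 144 CPM in scramble 1 to 4 and at 206, 194, 197 and 203 CPM in tDR 1 to 4. Scramble 1 and 4 were again the low ones, scramble 3 was the highest of all, and the tDR libraries lay close together. The log2 fold change was 0.25 (SE 0.18, 95% interval -0.12 to 0.61, edgeR adjusted p = 0.447). Over the 8 libraries the log2 levels of SNORD79 and SNORD81 had a Pearson r of 0.92, across libraries that share the TMM scaling.

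SNORD44, the highest member by level per length, varied little. Its level was 418, 492, 469 and 427 CPM in scramble 1 to 4 and 486, 491, 453 and 406 CPM in tDR 1 to 4. The tDR group held the lowest library and the scramble group the highest, and the log2 fold change was 0.025 (SE 0.15, 95% interval -0.28 to 0.33, edgeR adjusted p = 0.942). Its coefficient of variation over the 8 libraries, 7.64%, ranked 9th lowest of 188 tested SNORD rows, whose median was 16.7%. SNORD47, the other member in use as a reference RNA, ranked 70th with 13.5%. SNORD80 ranked 27th with 9.04% and SNORD76 33rd with 9.57%. Sparser rows carry more counting error, and SNORD44 ranked 6th of the SNORD rows by mean CPM, so these ranks are not like for like.

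SNORD47 stood at 124, 164, 189 and 150.1 CPM in scramble 1 to 4 and at 185, 158, 168 and 142 CPM in tDR 1 to 4. The scramble group held the lowest and the highest library. Its log2 fold change was 0.062 (SE 0.16, 95% interval -0.27 to 0.39, edgeR adjusted p = 0.875). SNORD76, a guide for 28S rRNA, gave 151, 183, 164 and 141 CPM against 179, 179, 155 and 153 CPM (log2 fold change for SNORD76 0.062, SE 0.14, 95% interval -0.24 to 0.37, edgeR adjusted p = 0.866). In both, the groups overlapped over most of their range.

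SNORD80 had the most negative estimate. It gave 161, 157, 164 and 138 CPM in scramble 1 to 4 and 132, 155, 139 and 133 CPM in tDR 1 to 4. Scramble 4 fell among the tDR libraries and tDR 2 near the other scramble libraries. The log2 fold change was -0.15 (SE 0.14, 95% interval -0.44 to 0.14, edgeR adjusted p = 0.603).

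SNORD77, which shares the 14-base run with SNORD80, gave 81.0, 99.9, 99.9 and 90.2 CPM in scramble 1 to 4 and 114, 112, 82.5 and 67.4 CPM in tDR 1 to 4. The tDR libraries split, with tDR 1 and 2 above every scramble library, tDR 4 below them all and tDR 3 at the low end of their range. Its log2 fold change was 0.017 (SE 0.17, 95% interval -0.34 to 0.37, edgeR adjusted p = 0.968). The ratio of SNORD77 to SNORD80 per length was 0.611 ± 0.0690 in the scramble and 0.682 ± 0.157 in the tDR libraries (SD, n = 4 each), and the groups overlapped.

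The 3 least abundant members, also 28S guides, had estimates below 0. SNORD75 gave 56.0, 67.6, 68.7 and 59.8 CPM in scramble 1 to 4 and 65.0, 64.5, 50.7 and 48.9 CPM in tDR 1 to 4 (log2 fold change -0.14, SE 0.15, 95% interval -0.45 to 0.18, edgeR adjusted p = 0.683). SNORD78 gave 37.1, 46.9, 50.5 and 40.9 CPM against 43.1, 51.6, 34.0 and 33.0 CPM (log2 fold change -0.12, SE 0.17, 95% interval -0.48 to 0.24, edgeR adjusted p = 0.803). In both, tDR 3 and 4 were the lowest of the 8 libraries, while tDR 1 and 2 lay within or above the scramble range. Across features tDR 3 and 4 were also the most alike tDR pair (chi-square per degree of freedom 15.6, other tDR pairs 83.9 to 138). SNORD74 gave 73.8, 57.3, 54.4 and 60.1 CPM against 64.5, 58.3, 54.0 and 47.9 CPM (log2 fold change -0.13, SE 0.15, 95% interval -0.44 to 0.19, edgeR adjusted p = 0.707), and its highest library, scramble 1, stood below the median of the 8 libraries for every other member except SNORD80.

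**Figure D3:**
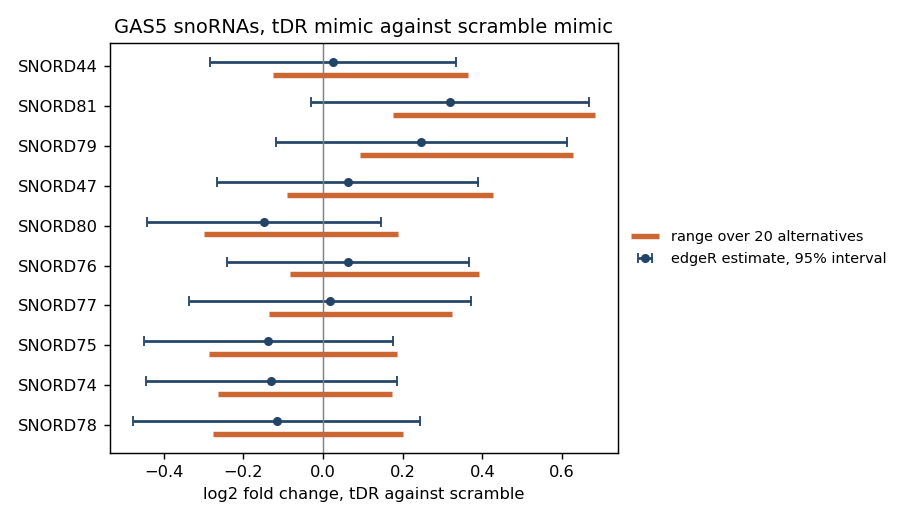
Log2 fold change of each GAS5 snoRNA, tDR against scramble. Points with bars are edgeR estimates with 95% intervals, and the thick lines give the range of the estimate over 20 other settings. Every interval includes 0, and the thick lines of SNORD81 and SNORD79 alone stay above 0.

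The make-up of the set was read as the percent of the summed counts of the 10 members, which does not depend on library scaling. Such shares are coupled, since a larger share of SNORD81 leaves less for the rest. SNORD44 took 26.3 ± 1.43% of these counts in the scramble and 24.9 ± 0.929% in the tDR libraries, and SNORD81 took 21.5 ± 2.08% and 25.4 ± 2.12% (SD, n = 4 each). The mean share of SNORD44 was the larger in the scramble libraries, and that of SNORD81 was slightly the larger in the tDR libraries. SNORD81 held 20.1%, 23.8%, 22.7% and 19.4% in scramble 1 to 4 and 25.0%, 22.8%, 25.8% and 28.0% in tDR 1 to 4. The tDR libraries were mostly higher, but tDR 2 lay between scramble 2 and 3.

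SNORD79 took 9.64 ± 1.58% and 10.9 ± 0.718%, SNORD76 9.27 ± 0.560% and 9.03 ± 0.344%, and SNORD47 9.05 ± 0.860% and 8.84 ± 0.616%. SNORD80 took 9.04 ± 1.05% in the scramble and 7.59 ± 0.632% in the tDR libraries, with tDR 2 (8.19%) just above scramble 2 (8.17%). SNORD75 was the single member whose shares did not overlap, with 3.52% to 3.86% in the scramble and 2.82% to 3.40% in the tDR libraries. In CPM its groups overlapped, at 56.0 to 68.7 in the scramble and 48.9 to 65.0 in the tDR libraries. Measured against the same sum, 15.0% of all tested features did not overlap between the groups, so 1 of 10 is near the background. SNORD77, SNORD74 and SNORD78 took 5.39 ± 0.285% and 5.05 ± 0.950%, 3.64 ± 0.923% and 3.04 ± 0.200%, and 2.54 ± 0.117% and 2.18 ± 0.383%.

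**Figure D4:**
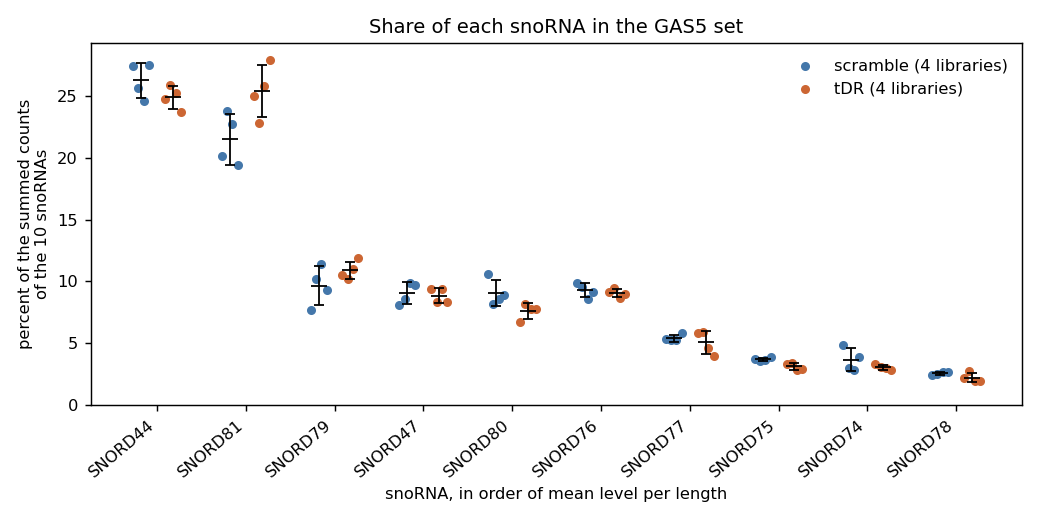
Percent of the summed counts of the 10 GAS5 snoRNAs taken by each one in the 4 scramble and 4 tDR libraries. Points are libraries and bars are the mean ± SD of a group. SNORD81 runs from 19.4% to 28.0%, and SNORD75 is the one member without overlap between the groups.

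As a set the members held 0.182 ± 0.0291% of all counts in the scramble and 0.176 ± 0.0226% in the tDR libraries, and 14.3 ± 1.20% and 14.2 ± 0.544% of SNORD counts (SD, n = 4 each). Their summed level was 1727 ± 218 and 1843 ± 111 CPM. Scramble 1 and 4 had the lowest sums, 1525 and 1552 CPM, and tDR 1 the highest, 1964 CPM. The rows scr and scr2 were outside the total counts, while no row was left out for the tDR mimic. The part of the tDR mimic in these totals was not tested.

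The members did not all move together from library to library. Over the 45 pairs the median Pearson r of log2 CPM across the 8 libraries was 0.51, 23 pairs were above 0.5 and 6 were below 0. The highest values were 0.94 for SNORD75 with SNORD78 and 0.92 for SNORD79 with SNORD81. The lowest involved the 5′-most member, with -0.72 for SNORD74 with SNORD79 and -0.60 for SNORD74 with SNORD81. In scramble 1 SNORD74 was at its highest (73.8 CPM), SNORD79 at its lowest (117 CPM) and SNORD81 near its lowest (307 CPM). These negative values therefore lean on 1 library, and values without it were not computed.

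Outside the set, the SNORD rows most like the summed members across the 8 libraries were SNORD58A (r = 0.98), SNORD72 (0.96) and SNORD58C (0.95), against a median of 0.39 over the other tested SNORD rows. The points share library and scaling. SNORD58A went from 145 to 169 CPM and SNORD58C from 191 to 223 CPM, with log2 fold changes of 0.22 (edgeR adjusted p = 0.472) and 0.22 (adjusted p = 0.455), and SNORD72 from 58.0 to 63.0 CPM (0.12, adjusted p = 0.757).

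The wider snoRNA class gave 0 calls as well. Of 178 other tested SNORD rows 0 rose and 0 fell, with a median log2 fold change of 0.074 and 5 with an unadjusted p below 0.05, and DESeq2 and limma-voom called 0. With scaling on microRNA rows 1 rose. The lowest p was that of SNORD50A, at 24.3 ± 7.01 and 33.3 ± 3.69 CPM (log2 fold change 0.47, SE 0.20, 95% interval 0.057 to 0.87, edgeR adjusted p = 0.172). Of 127 tested SNORA rows, the H/ACA class that guides pseudouridylation, edgeR called 0, with 5 at an unadjusted p below 0.05, a median of 0.12 and SNORA46 at the lowest p (log2 fold change 1.15, SE 0.42, adjusted p = 0.108).

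Among snoRNAs of the other hosts, medians were 0.21 for the 8 of SNHG1, -0.032 for 4 of RPL13A and 0.16 for 4 of RPL7A. By edgeR 0 of these passed, and 0 had an unadjusted p below 0.05. The lowest p in each list belonged to SNORD22 (log2 fold change 0.27, SE 0.15), SNORD32A (-0.34, SE 0.20) and SNORD36A (0.21, SE 0.16), with edgeR adjusted p of 0.287, 0.326 and 0.505.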

How the data were processed

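The authors deposited raw counts per small RNA feature and a second table of normalized signal, in which each count is divided by a factor per library. The submitters' processing notes name hg38 as the build. For the aligner, counter and annotation, the tools are not given in the sources used. The rows scr and scr2 name no gene, held 0.000749% to 0.565% of a library and were left out of library sizes and tests. No row was left out for the tDR mimic. Of 2962 features 1761 passed filterByExpr and were tested with edgeR 4.0.16 (R 4.3.3), using TMM factors and a robust quasi-likelihood fit of 4 tDR against 4 scramble libraries without covariates. Calls used a Benjamini-Hochberg adjusted p below 0.05. SE is the size of the log2 fold change over the square root of F, and 95% intervals use the fit's total degrees of freedom. Alternatives used DESeq2 1.42.0, limma 3.58.1 (voom, and log2 of the deposited signal plus 1), other scalings and filters, a replicate block and leaving out each library. The authors' factors and leaving out tDR libraries 3 and 4 together were added after seeing the data. No replicate pair was a copy (lowest chi-square per degree of freedom 15.6, for tDR 3 with tDR 4). The other tDR pairs ran from 83.9 to 138, and the scramble pairs from 15.8 to 74.4, so replicates were unevenly alike. Correlations used log2(CPM + 0.5). On data simulated from 1761 features, the fit recovered 79 of 97 with a log2 change of 1 and 93 of 94 with one of 2, and made 11 false calls among 1530 unchanged. Positions and lengths are RefSeq's (GRCh38.p14), with introns and sequences from GENCODE release 29. Python 3.11.15 made the tables and figures. All 10 members, the comparison lists, the lowest-p row of each list, the 3 most similar SNORD rows and the markers were named by rule. The members and lists were chosen with earlier results of these data known. The pairs whose ratios are given, and SNORD77B, SNORD81.1 and SNORD81.2, were chosen after their values were seen. One comparison list is not reported here.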

Additional observations from a re-analysis of the deposited data

How the results depend on the processing

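Over 20 alternative settings, each of the 10 snoRNAs stayed uncalled (200 estimates, 0 past the threshold, lowest adjusted p = 0.134). In 29 of the 200 the sign was the opposite of the reported one. Total counts moved the median of all features to -0.13. Under that scaling SNORD44, SNORD47, SNORD76 and SNORD77 turned to -0.13, -0.090, -0.082 and -0.13 (log2). Under TMM on microRNA rows, which moved the median of all features to 0.36, SNORD74, SNORD75, SNORD78 and SNORD80 turned to 0.17, 0.19, 0.20 and 0.19, all below that shift. TMM on other SNORD rows gave SNORD44 -0.035 and SNORD77 -0.053, and a mean count of at least 50 gave -0.034 and -0.058. SNORD77 was -0.0094 with DESeq2 size factors, -0.0080 with the DESeq2 Wald test, -0.010 with limma-voom and -0.010 with the replicate block. Without tDR libraries 3 and 4, SNORD75 and SNORD78 were 0.041 and 0.11. With 1 library left out, SNORD44 ran from -0.020 to 0.082, SNORD47 from -0.038 to 0.13, SNORD76 from -0.012 to 0.12 and SNORD77 from -0.10 to 0.15. SNORD81 (0.22 to 0.42) and SNORD79 (0.10 to 0.37) stayed above 0. These 2 were 0.17 and 0.093 under total counts and 0.68 and 0.63 under TMM on microRNA rows. The cause of these shifts was not tested. The ratio of highest to lowest member, 11.7, was 11.3 without length correction and 11.4 to 11.98 with 1 library left out.

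The count of 118 called features became 39 with the replicate block and ran from 65 (without scramble library 2) to 164 (without tDR library 1), and was 70 without scramble library 3. The block had 0 of the 10 snoRNAs called. Same-numbered libraries had correlations of deviations from -0.34 to -0.12, so they showed no shared deviation. Whether they were handled together cannot be told from these values. Total-count scaling gave 54 higher and 39 lower features, and microRNA scaling 157 and 1.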
